A study of Mus musculus with 15 samples.

Results

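The 8 genes described here encode the tissue isoforms of cytochrome c oxidase: Cox6a2 and Cox6a1, Cox7a1 and Cox7a2, Cox8b and Cox8a, and Cox4i2 and Cox4i1. They were taken by symbol as the 4 isoform pairs of the enzyme, out of 39331 genes in the count table, and all 8 were among the 16437 genes tested. The study sequenced polyadenylated RNA of the left ventricle in 15 libraries, all from mice of the strain C57BL/6 with an experimentally induced myocardial infarction. Adult recipients (AH_T, 4 libraries) were adult hearts with adult T cells, and adult controls (AH_C, 3 libraries) were adult hearts whose treatment was not stated. Neonatal recipients (NH_T, 4 libraries) were neonatal hearts given adult T cells, and neonatal controls (NH_C, 4 libraries) were neonatal hearts left without them. The time of 36 h after infarction stands in the protocol for neonatal hearts, and neither ages in days, T cell doses nor the adult time point were stated. All 15 hearts were infarcted, so no value below describes an uninjured heart. The labels do not say whether a library is 1 animal, and p-values measure the spread between libraries.

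Cytochrome c oxidase, or complex IV, is the last enzyme of the respiratory chain, where it passes electrons from cytochrome c to oxygen. Its catalytic core is encoded by mitochondrial DNA, and the small surrounding subunits by nuclear genes. For subunits 6A, 7A and 8, rodents have a heart and skeletal muscle form (Cox6a2, Cox7a1, Cox8b) and a form found in most tissues, long called the liver form (Cox6a1, Cox7a2, Cox8a). Fetal heart contains largely the liver forms, and the heart forms come up around and after birth. Subunit 4 has a form found in nearly all cells, Cox4i1, and a form best known from lung and from vascular mural cells, Cox4i2, which is induced by low oxygen. Human genomes keep no working copy of the heart form of subunit 8, so Cox8b is a gene of mice and other mammals.

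The positions in the table are on GRCm38.p6. Cox6a2 (gene ID 12862, chr7:128205435-128206366, minus strand), Cox7a1 (12865, chr7:30184171-30186030, plus strand) and Cox8b (12869, chr7:140898942-140900446, minus strand) all lay on chromosome 7. Their partners were on other chromosomes: Cox6a1 (12861) at chr5:115345623-115348958 on the minus strand, Cox7a2 (12866) at chr9:79755241-79771422 on the minus strand, and Cox8a (12868) at chr19:7215158-7217616 on the minus strand. Cox4i1 (12857) spanned chr8:120668225-120674209 and Cox4i2 (84682) chr2:152753916-152765039, both on the plus strand. The heart forms were compact, with genomic spans of 932 bases for Cox6a2, 1860 for Cox7a1 and 1505 for Cox8b, against 3336 bases for Cox6a1, 16182 for Cox7a2 and 2459 for Cox8a. The longest run of bases that any annotated transcripts of a pair had in common was 12 for Cox6a2 and Cox6a1, 12 for Cox7a1 and Cox7a2, 11 for Cox8b and Cox8a, and 14 for Cox4i2 and Cox4i1. The deposited counts hold fractions, and Cox8b was whole in 15 of 15 libraries, whereas Cox8a was whole in 2 of 15.

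Of the 8 genes, 5 matched an entry of the RefSeq promoter table (GRCm38.p6), which gives 250 bases before and 50 after an annotated start. Those printed were chosen by how their genes varied from library to library. The heart forms Cox7a1 and Cox8b varied together, and the partners Cox6a1 and Cox8a varied together and apart from the other genes. Cox7a2 also had an entry and is not printed. Centred within group, its log2 CPM had a Pearson r of 0.77 with Cox7a1, 0.81 with Cox8b, and 0.14 with each of Cox6a1 and Cox8a. The part of promoter sequence in this variation was not tested. The promoters are shown 5′ to 3′ on the gene's strand. Capitals mark the motifs listed after them. The windows are chr7:30183921-30184220 (plus strand), chr7:140900397-140900696 (minus), chr5:115348909-115349208 (minus) and chr19:7217567-7217866 (minus), in the order printed.
Cox7a1: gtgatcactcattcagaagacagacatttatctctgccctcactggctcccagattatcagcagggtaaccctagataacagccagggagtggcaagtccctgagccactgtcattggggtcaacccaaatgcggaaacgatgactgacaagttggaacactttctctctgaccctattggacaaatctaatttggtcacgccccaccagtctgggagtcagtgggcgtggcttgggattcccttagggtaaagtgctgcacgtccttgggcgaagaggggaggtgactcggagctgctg
Cox8b: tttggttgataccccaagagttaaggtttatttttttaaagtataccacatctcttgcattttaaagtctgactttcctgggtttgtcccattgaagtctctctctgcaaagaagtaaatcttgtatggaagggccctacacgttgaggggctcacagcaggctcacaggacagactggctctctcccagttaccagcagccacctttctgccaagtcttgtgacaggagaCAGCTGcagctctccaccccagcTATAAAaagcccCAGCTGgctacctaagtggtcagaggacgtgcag
Cox6a1: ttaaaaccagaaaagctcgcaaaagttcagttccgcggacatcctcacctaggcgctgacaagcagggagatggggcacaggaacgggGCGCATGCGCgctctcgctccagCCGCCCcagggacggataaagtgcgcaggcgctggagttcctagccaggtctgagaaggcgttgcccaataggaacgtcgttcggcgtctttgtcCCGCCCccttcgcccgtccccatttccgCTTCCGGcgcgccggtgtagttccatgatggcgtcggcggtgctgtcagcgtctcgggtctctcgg
Cox8a: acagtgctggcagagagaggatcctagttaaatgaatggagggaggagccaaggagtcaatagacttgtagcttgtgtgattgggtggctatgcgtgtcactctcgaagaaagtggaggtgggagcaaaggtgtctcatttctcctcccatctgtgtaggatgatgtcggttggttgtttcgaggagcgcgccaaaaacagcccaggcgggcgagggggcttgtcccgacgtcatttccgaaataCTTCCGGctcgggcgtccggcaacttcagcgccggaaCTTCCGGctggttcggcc

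These windows differed in base composition. The promoter of Cox6a1 held 32 CpG dinucleotides, that of Cox7a2 20 and that of Cox8a 19, whereas Cox7a1 held 7 and Cox8b 2, and the median of 32851 RefSeq promoters was 7. The window of Cox7a2, chr9:79759804-79760103 (minus strand), lay inside the span of 16182 bases given above. That span thus reaches farther upstream than the start used for this window. The ETS letters CCGGAAG, read on both strands and the core of the site of GABP, a factor of respiratory chain genes, occurred 2 times in Cox8a and 1 time in Cox6a1. They are held by 8.86% of all promoters. The letters GCGCATGC of nuclear respiratory factor 1, a regulator of nuclear genes for mitochondrial proteins, gave 2 overlapping matches in Cox6a1, on opposite strands, and are held by 2.71% of promoters. The Sp1 letters GGGCGG gave 2 matches in Cox6a1 and 1 in Cox7a2 and are in 35.7% of promoters. Cox8b had 2 E-boxes CAGCTG (in 16.3% of promoters) and 1 TATAAA (in 13.6%), which lay just after the annotated start and not before it. No match of AAGGTCA (estrogen-related receptors, in 4.72% of promoters), CATTCC (TEAD factors, in 14.7%) or the MEF2 site (in 3.19%) was found in the 5 windows, and Cox7a1 matched none of these letters. No entry was matched for Cox6a2, Cox4i1 or Cox4i2.

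Library totals were between 21871617 and 34302786 counts. The summed level of 9 cardiomyocyte genes was 65510 to 73820 CPM (counts scaled to a common library size, with TMM factors for composition) in adult recipients, 55480 to 57920 in adult controls, 40360 to 50110 in neonatal recipients and 45020 to 49830 in neonatal controls. Genes listed as atrial markers (Myl7, Nppa and Sln, the last with a median under 10 counts) summed to 253.1 to 3424 CPM in adult recipients, 191.6 to 1052 in adult controls, 3172 to 7119 in neonatal recipients and 1536 to 5700 in neonatal controls. The part of atrial tissue in these sums was not tested. Neonatal control 8 stood apart as high for the heart forms, neonatal recipient 1 as low in its ratio of Cox6a2 to Cox6a1, and adult recipient 4 as high for Cox6a1 and Cox8a. In bulk RNA, fewer cells of a type and less RNA per cell cannot be told apart.

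The heart forms were higher in adult than in neonatal hearts, in controls and in recipients. Cox6a2 had 925.0, 940.6 and 918.3 CPM in adult controls, against 413.0, 394.4, 563.9 and 376.2 CPM in neonatal controls. The 2 sets of libraries lay far apart, although neonatal control 8, at 563.9 CPM, stood above its group. Cox7a1 had 242.9, 248.3 and 208.9 CPM in adult controls and 88.7, 84.9, 142.2 and 83.4 CPM in neonatal controls. Cox8b had 340.6, 347.9 and 309.8 CPM in adult controls and 139.6, 125.3, 216.1 and 129.1 CPM in neonatal controls. For both genes neonatal control 8 was the highest neonatal library and still below every adult one.

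**Figure D1:**
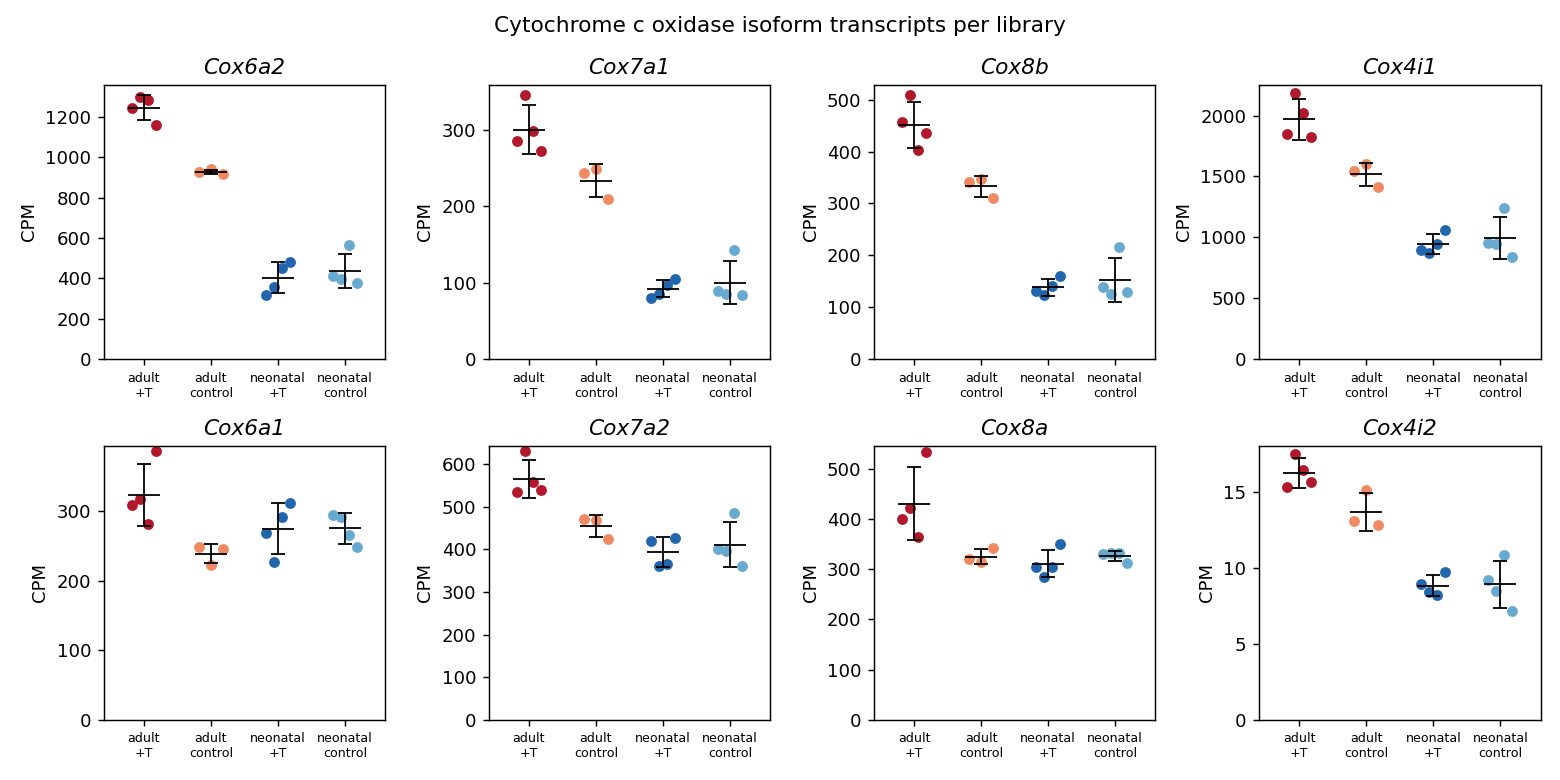
CPM (vertical axes, each from 0) of the 8 isoform genes in each library of the 4 groups (horizontal axes), with the group mean and SD as black bars. Cox6a2, Cox7a1, Cox8b, Cox4i1 and Cox4i2 are higher in all adult than in all neonatal libraries, whereas Cox6a1, Cox7a2 and Cox8a lie in overlapping or close ranges in controls.

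In the fit across all genes (edgeR quasi-likelihood test, Benjamini-Hochberg adjusted), 5 of 8 isoform genes were called higher and 0 lower in adult than in neonatal controls, where 30.9% of all genes tested were called, 15.6% higher and 15.4% lower. Cox7a1 rose by a log2 fold change of 1.23 ± 0.16 (SE, adjusted p = 4.9e-05), Cox8b by 1.13 ± 0.15 (adjusted p = 5.8e-05) and Cox6a2 by 1.09 ± 0.14 (adjusted p = 1.95e-05). These are folds of 2.34, 2.18 and 2.12. Without neonatal control 8 the log2 fold changes were 1.45 for Cox7a1, 1.34 for Cox8b and 1.23 for Cox6a2, all still called. The median over the 8 genes was 0.61 on the log2 scale, against -0.02 over all genes.

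The partners of the heart forms behaved differently in controls. Cox6a1 had 248.2, 223.4 and 246.3 CPM in adult controls and 295.5, 292.6, 266.5 and 248.6 CPM in neonatal controls. The groups did not overlap, but only just, and the log2 fold change of -0.21 ± 0.11 did not pass the test (edgeR, adjusted p = 0.176); with library totals and no TMM it was called lower (-0.37, adjusted p = 0.0192). Cox7a2 had 471.5, 469.7 and 424.3 CPM in adult controls, against 401.2, 395.4, 486.4 and 361.8 CPM in neonatal controls, which overlapped through neonatal control 8. Its log2 fold change of 0.15 ± 0.10 had an edgeR adjusted p of 0.283, and without that library 0.24 with an adjusted p of 0.0419. Cox8a had 319.2, 313.9 and 341.4 CPM in adult controls and 329.0, 332.9, 332.5 and 311.8 CPM in neonatal controls, an almost complete overlap, with a log2 fold change of -0.008 ± 0.104. The adult and neonatal control groups did not overlap for 6 of the 8 genes, 5 higher and Cox6a1 lower, against 34.6% of all genes tested.

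In controls, subunit 4 was the pair of which both forms were called higher, and without neonatal control 8 the same held for Cox7a1 and Cox7a2. Cox4i1 had 1541, 1600 and 1412 CPM in adult controls, against 955.1, 945.5, 1244 and 835.2 CPM in neonatal controls. Cox4i2 was rare, with 13.1, 15.1 and 12.9 CPM in adult controls, against 9.22, 8.47, 10.9 and 7.20 CPM in neonatal controls. Neither gene's groups overlapped. Their log2 fold changes were 0.61 ± 0.12 for Cox4i1 (edgeR, adjusted p = 0.000699) and 0.62 ± 0.12 for Cox4i2 (adjusted p = 0.000966), folds of 1.53 and 1.53, and without neonatal control 8 they were 0.74 and 0.72. Markers of pericytes and smooth muscle, cells known for Cox4i2, summed to 1932 to 2194 CPM in adult controls and 1990 to 2310 CPM in neonatal controls, overlapping ranges. That sum held genes that went both ways: 3 of 10 were called higher and 4 lower (edgeR), with log2 fold changes of 1.49 for Rgs5, 0.86 for Kcnj8 and 0.54 for Myh11 against -3.36 for Cnn1, -1.49 for Tagln, -0.69 for Acta2 and -0.59 for Cspg4. Of all genes 15.6% were called higher and 15.4% lower. The part of these cells in the level of Cox4i2 was not tested. The 3 lung markers, of which none passed the filter on low counts, reached at most 0.0846 CPM in adult controls and 0.127 CPM in neonatal controls.

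The same comparison in recipients used other libraries throughout. Here 7 of 8 isoform genes were called higher and 0 lower (edgeR), while 50.7% of all genes were called, 23.8% higher and 26.9% lower. Cox6a2 had 1246, 1299, 1283 and 1159 CPM in adult recipients, against 318.7, 356.7, 452.4 and 482.8 CPM in neonatal recipients, a log2 fold change of 1.63 ± 0.13 (adjusted p = 6.85e-08). Cox7a1 had 284.9, 345.1, 298.5 and 272.9 CPM in adult recipients and 79.7, 85.7, 97.2 and 104.3 CPM in neonatal recipients, a log2 fold change of 1.71 ± 0.15 (edgeR, adjusted p = 4.7e-07). Neither gene came near overlapping. Cox8b had 457.3, 508.6, 402.8 and 436.4 CPM in adult recipients and 130.5, 122.8, 140.0 and 160.3 CPM in neonatal recipients, a log2 fold change of 1.71 ± 0.15 (edgeR, adjusted p = 2.5e-07).

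Cox4i1 had 1850, 2183, 2018 and 1821 CPM in adult recipients and 898.4, 870.2, 946.5 and 1063 CPM in neonatal recipients, a log2 fold change of 1.06 ± 0.11 (edgeR, adjusted p = 6.14e-07). Cox4i2 had 15.4, 17.6, 16.5 and 15.7 CPM in adult recipients and 8.95, 8.40, 8.23 and 9.78 CPM in neonatal recipients, a log2 fold change of 0.88 ± 0.11 (edgeR, adjusted p = 6.05e-06). Both groups of both genes were tightly spread. Cox7a2 had 535.0, 630.2, 559.1 and 539.9 CPM in adult recipients and 419.1, 360.7, 365.3 and 427.7 CPM in neonatal recipients, a log2 fold change of 0.53 ± 0.09 (edgeR, adjusted p = 0.000136). Cox8a had 399.9, 422.4, 363.8 and 533.0 CPM in adult recipients and 304.5, 284.5, 304.9 and 349.1 CPM in neonatal recipients, a log2 fold change of 0.47 ± 0.10 (edgeR, adjusted p = 0.000554). For Cox8a the highest neonatal library, at 349.1 CPM, lay just under the lowest adult one, and adult recipient 4 was far above the other adults. Cox6a1 had 309.4, 317.3, 281.2 and 386.5 CPM in adult recipients and 268.8, 227.7, 292.0 and 312.7 CPM in neonatal recipients, overlapping ranges, and did not pass the test (log2 fold change 0.23 ± 0.10, edgeR adjusted p = 0.0666). It was called by DESeq2 (0.25, adjusted p = 0.0418) and by edgeR without adult recipient 3 (0.30, adjusted p = 0.0308) or neonatal recipient 5 (0.30, adjusted p = 0.0286). Without adult recipient 4 it was 0.14 (edgeR adjusted p = 0.27). The groups did not overlap for 7 of 8 genes, against 45.4% of all genes tested.

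The ratio of 2 isoforms in a library does not depend on library size, so it was compared by age as well. Cox6a2 had 3.73, 4.21 and 3.73 counts per count of Cox6a1 in adult controls, against 1.40, 1.35, 2.12 and 1.51 in neonatal controls. The log2 ratio was higher by 1.31 ± 0.16 (SE of the difference), with groups that did not overlap (exact two-sided permutation test, p = 0.0286, adjusted p = 0.0381 over 8 ratio tests of age). In recipients the ratio was 4.03, 4.09, 4.57 and 2.998 in adults and 1.19, 1.57, 1.55 and 1.54 in neonates, a log2 difference of 1.42 ± 0.16 (exact permutation, adjusted p = 0.0381). The lowest adult ratio, 2.998, was that of adult recipient 4, and the lowest neonatal one, 1.19, that of neonatal recipient 1. A p of 0.0286 is the smallest that these group sizes allow.

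Cox7a1 had 0.515, 0.529 and 0.493 counts per count of Cox7a2 in adult controls, against 0.221, 0.215, 0.292 and 0.231 in neonatal controls. The log2 ratio was higher by 1.11 ± 0.11 (exact permutation, adjusted p = 0.0381). In recipients it was 0.533, 0.548, 0.534 and 0.506 in adults and 0.190, 0.238, 0.266 and 0.244 in neonates, a log2 difference of 1.19 ± 0.11 (exact permutation, adjusted p = 0.0381). Among the heart pairs, adult ratios of this one were the most alike from library to library, with an SD of 0.05 on the log2 scale in recipients and 0.05 in controls.

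Cox8b had 1.07, 1.11 and 0.907 counts per count of Cox8a in adult controls, against 0.424, 0.377, 0.650 and 0.414 in neonatal controls. The log2 ratio was higher by 1.17 ± 0.20 and the groups did not overlap, yet the exact permutation p was 0.0571 (adjusted p = 0.0653), which missed the threshold. In recipients it was 1.14, 1.20, 1.11 and 0.819 in adults and 0.429, 0.432, 0.459 and 0.459 in neonates, a log2 difference of 1.25 ± 0.13 (exact permutation, adjusted p = 0.0381). Adult recipient 4 again had the lowest adult ratio. Without neonatal control 8 the log2 differences in controls were 1.45 for Cox6a2/Cox6a1, 1.21 for Cox7a1/Cox7a2 and 1.34 for Cox8b/Cox8a, and without adult recipient 4 those in recipients were 1.54, 1.21 and 1.37.

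**Figure D2:**
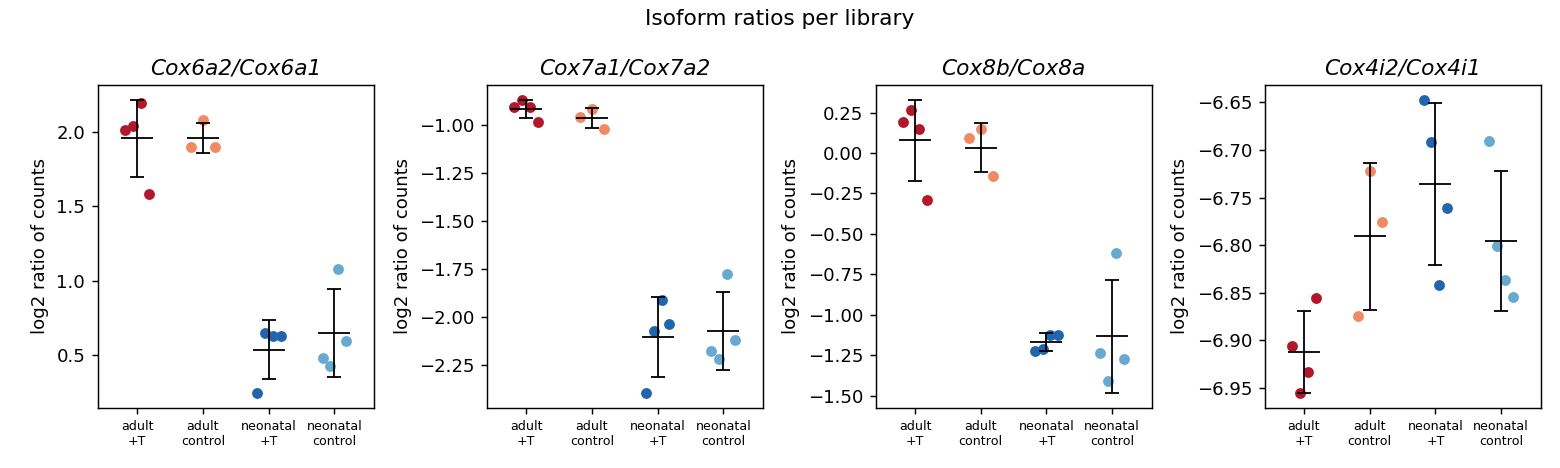
Log2 ratio of counts (vertical axes) of the 4 isoform pairs in each library of the 4 groups (horizontal axes), with the group mean and SD as black bars. All adult libraries lie above all neonatal ones for Cox6a2/Cox6a1, Cox7a1/Cox7a2 and Cox8b/Cox8a, and recipients overlap controls at each age.

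Cox4i2 did not gain on Cox4i1. The log2 ratio was -6.87, -6.72 and -6.78 in adult controls and -6.69, -6.80, -6.84 and -6.85 in neonatal controls, with a difference of 0.005 ± 0.058 (exact permutation, adjusted p = 0.943). In recipients it was -6.91, -6.96, -6.93 and -6.86 in adults and -6.65, -6.69, -6.84 and -6.76 in neonates, a log2 difference of -0.18 ± 0.05, lower in adults (exact permutation, adjusted p = 0.0381). The step was small but the groups did not overlap. Leaving out any 1 of the 4 adult recipients ended this call (exact permutation, adjusted p = 0.0653 each time), without adult recipient 4 at a difference of -0.20, while the other 3 pairs kept theirs.

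Levels of 2 genes can be set against each other only per length, here per kb of the longest coding transcript. On that scale Cox6a2 made up 76.4% ± 3.3 (SD, n = 4) of its pair in adult recipients, 76.5% ± 1.2 (n = 3) in adult controls, 54.9% ± 3.4 (n = 4) in neonatal recipients and 56.8% ± 5.0 (n = 4) in neonatal controls. The heart form thus already made up more than its partner in neonates, except in neonatal recipient 1 at 49.9%. Cox8b made up 61.7% ± 4.2 in adult recipients, 61.0% ± 2.5 in adult controls, 40.4% ± 0.9 in neonatal recipients and 41.1% ± 5.9 in neonatal controls. Cox8b was therefore the major form in every adult library and the minor one in every neonatal library, neonatal control 8 standing at 49.8%. Cox7a1 made up 47.0% ± 0.8 in adult recipients, 46.2% ± 0.9 in adult controls, 28.1% ± 2.8 in neonatal recipients and 28.6% ± 2.9 in neonatal controls, and it stayed below its partner in all adult libraries, the highest being 47.9%. With the longest annotated transcript instead, a choice made after seeing the data, the shares in adult recipients, adult controls, neonatal recipients and neonatal controls were 77.8%, 77.95%, 56.95% and 58.8% for Cox6a2, and 41.9%, 41.0%, 24.1% and 24.5% for Cox7a1. Cox4i2 made up 0.858% ± 0.026 in adult recipients, 0.933% ± 0.049 in adult controls, 0.969% ± 0.057 in neonatal recipients and 0.930% ± 0.048 in neonatal controls.

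On the same scale of CPM per kb, the order of the levels in adult controls was Cox4i1 (1984 ± 126), Cox6a2 (1365 ± 17), Cox8b (924 ± 56), Cox7a2 (691 ± 41), Cox7a1 (594 ± 54), Cox8a (591 ± 27), Cox6a1 (419 ± 24) and Cox4i2 (18.7 ± 1.7, SD, n = 3). The ranges of mean ± SD of Cox7a1 and Cox8a overlapped. Such ranges hold the spread between libraries and do not compare genes within a library. In neonatal controls it was Cox4i1 (1301 ± 229), Cox6a2 (643 ± 127), Cox7a2 (624 ± 81), Cox8a (594 ± 18), Cox6a1 (483 ± 39), Cox8b (424 ± 119), Cox7a1 (254 ± 72) and Cox4i2 (12.2 ± 2.1, n = 4). There the ranges of mean ± SD overlapped for the neighbours Cox6a2, Cox7a2 and Cox8a, for Cox6a1 and Cox8b, and for Cox8b and Cox7a1. Within libraries, however, Cox8b was above Cox7a1 in every neonatal control. In adult recipients the order was Cox4i1 (2572 ± 219), Cox6a2 (1834 ± 92), Cox8b (1254 ± 123), Cox7a2 (859 ± 67), Cox8a (781 ± 133), Cox7a1 (764 ± 80), Cox6a1 (567 ± 78) and Cox4i2 (22.2 ± 1.3, n = 4). The ranges of mean ± SD of Cox7a2, Cox8a and Cox7a1 overlapped, although Cox7a1 was below Cox7a2 in every one of these libraries. In neonatal recipients it was Cox4i1 (1235 ± 111), Cox7a2 (597 ± 53), Cox6a2 (592 ± 114), Cox8a (565 ± 50), Cox6a1 (482 ± 64), Cox8b (384 ± 45), Cox7a1 (233 ± 28) and Cox4i2 (12.1 ± 1.0, n = 4), where the range of mean ± SD of each gene from Cox7a2 down to Cox8b overlapped that of the next. Cox8b thus stood behind only Cox4i1 and Cox6a2 in both adult groups, and ahead of only Cox7a1 and Cox4i2 in both neonatal groups.

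The subunits of complex IV that have no heart and liver forms give a yardstick within the enzyme. All 7 of them were called higher in adult than in neonatal controls (edgeR, median log2 fold change 0.39) and all 7 in recipients (median 0.83). Of all genes 15.6% were called higher in controls and 23.8% in recipients. Cox5b, a subunit on the matrix side, had a log2 fold change of 0.61 ± 0.12 in controls (adjusted p = 0.0012) and 1.14 ± 0.12 in recipients (adjusted p = 5.87e-07). Ndufa4, a subunit first assigned to complex I, had 0.51 ± 0.12 in controls and 0.95 ± 0.11 in recipients (edgeR, adjusted p = 0.00312 and 2.09e-06). All 3 core subunits of mitochondrial DNA were called higher as well, with medians of 0.63 in controls and 0.62 in recipients. Relative to the geometric mean of 6 of the common subunits in the same library, Cox7a1 was higher in adult than in neonatal controls by 0.83, Cox8b by 0.73 and Cox6a2 by 0.68 on the log2 scale. The partners were lower, with differences of -0.63 for Cox6a1, -0.44 for Cox8a and -0.27 for Cox7a2, and for all 6 the groups did not overlap. In recipients the differences were 0.87 for Cox7a1, 0.87 for Cox8b, 0.81 for Cox6a2, -0.61 for Cox6a1, -0.38 for Cox8a and -0.31 for Cox7a2, with an overlap only for Cox8a. Cox4i1 was higher by less, 0.20 in controls and 0.22 in recipients, and its groups did not overlap in either. Cox4i2 was higher by 0.20 in controls, without overlap, and by 0.04 in recipients, with overlap. These relative values are descriptions without a test.

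**Figure D3:**
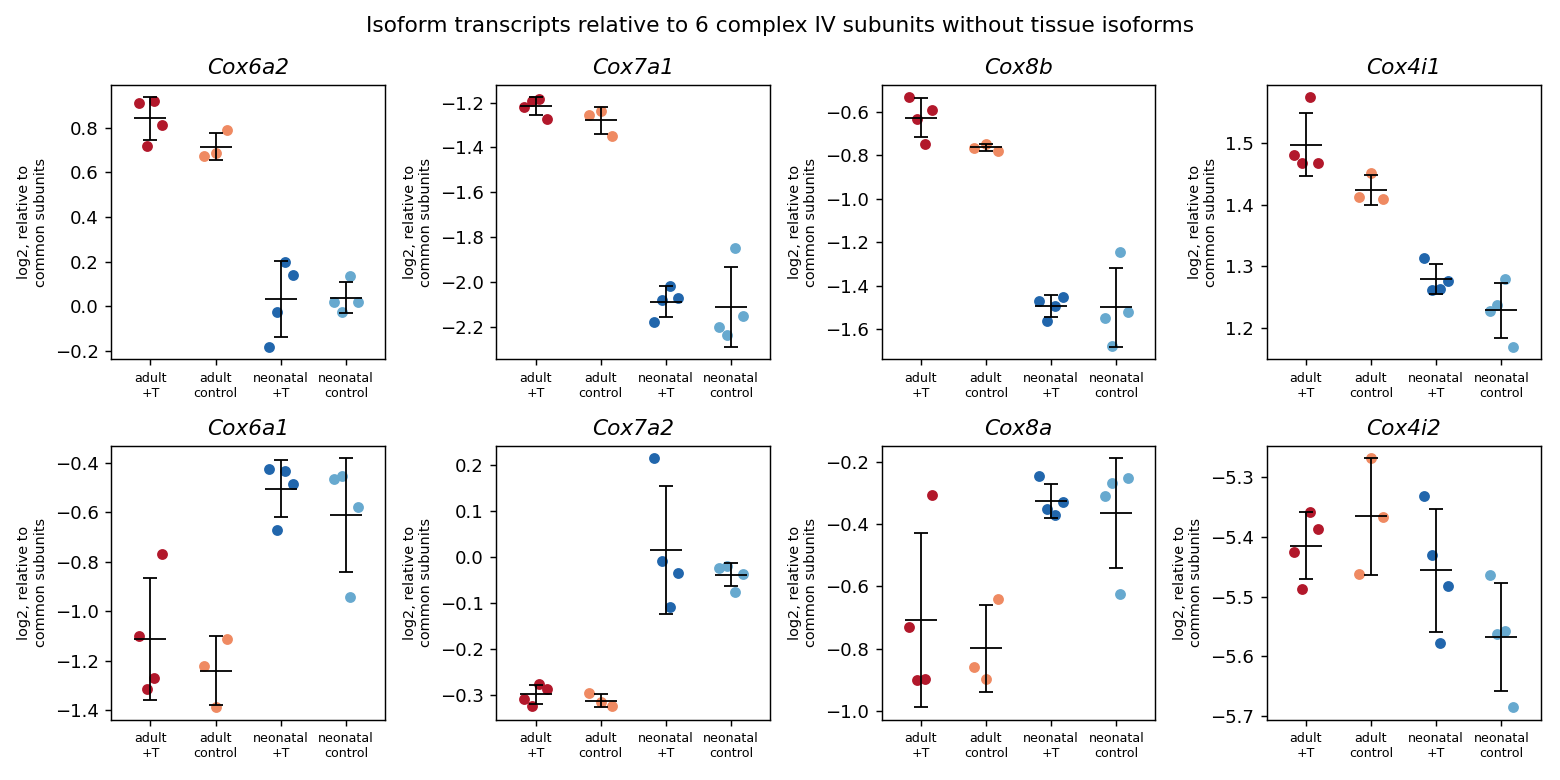
Log2 count of each isoform gene relative to the geometric mean of 6 common complex IV subunits in the same library (vertical axes, ranges differ), for the 4 groups (horizontal axes), with group mean and SD as black bars. Heart forms lie higher and their partners lower in adults, with an overlap for Cox8a in recipients, and adult recipient 4 is the highest adult library for Cox6a1 and Cox8a.

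Other complex IV genes were compared by age in the same way. Cox7a2l, a relative of subunit 7A, was called higher in adult controls (log2 fold change 0.26 ± 0.09, edgeR adjusted p = 0.0262) and in adult recipients (0.53 ± 0.08, adjusted p = 3.02e-05) than in their neonatal counterparts. Ndufa4l2, a relative of Ndufa4 that is induced by low oxygen, had log2 fold changes of 0.59 ± 0.08 in controls and 0.85 ± 0.08 in recipients, and Cox6b2, known as a testis form, 0.80 ± 0.22 and 1.27 ± 0.20. All 3 tested genes of this list were called higher in both age comparisons, and Cox7b2 and Cox8c were too low to be tested. Of 26 assembly and copper factors, 6 were called higher and 0 lower in controls (median log2 fold change 0.11), beside 15.6% of all genes called higher and 30.9% in either direction, among them Cox14 (0.63 ± 0.10), Higd2a (0.48 ± 0.09), Cox10, which makes the heme of the enzyme (0.31 ± 0.08), and Surf1 (0.34 ± 0.10). In recipients 16 of 26 were called higher and 0 lower (median 0.29), beside 23.8% of all genes called higher.

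Among 17 regulators, 5 were called higher and 1 lower in adult than in neonatal controls (edgeR; median log2 fold change 0.005), close to the 30.9% of all genes called in either direction. Thrb, a receptor of thyroid hormone, rose by 2.39 ± 0.25 (adjusted p = 2.58e-06), at 6.62 ± 0.25 CPM in adult controls against 1.25 ± 0.30 CPM in neonatal controls (SD, n = 3 and 4). Thra, the other receptor of that hormone, rose by 0.44 ± 0.08 and Esrra, a nuclear receptor of oxidative metabolism genes, by 0.37 ± 0.09 (edgeR, adjusted p = 0.000799 and 0.00333). Hif1a, the oxygen-regulated factor known to act on Cox4i2, fell by 0.51 on the log2 scale (SE 0.10, edgeR adjusted p = 0.00101). The part of these regulators in the levels of the isoform genes was not tested. In recipients 5 of 17 were called higher and 5 lower, near the 50.7% of all genes called. There Hif1a had a log2 fold change of -0.95 ± 0.09, Thrb 2.12 ± 0.25, Esrra 0.58 ± 0.08 and Chchd2, known in human cells as a regulator of COX4I2, 0.70 ± 0.08 (edgeR).

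Other isoform pairs of heart were set beside these, and the genes named were chosen after their values were seen. Of 10 tested, 6 were called higher and 2 lower in adult than in neonatal controls, beside 15.6% and 15.4% of all genes. Tnni3, the adult cardiac troponin I, rose by a log2 fold change of 0.68 ± 0.12 and Tnni1, its fetal counterpart, had -0.56 ± 0.09 (edgeR, adjusted p = 0.000411 and 0.00027). In recipients 7 were called higher and 0 lower, beside 23.8% and 26.9% of all genes, and Tnni1, at -0.19 ± 0.09, was not called (edgeR adjusted p = 0.0789). The 1 brown fat marker that could be tested was Cidea, and the other 4 of 5, among them Ucp1, had medians under 10 counts, although Cox7a1 and Cox8b are known from brown fat too. For Cidea the log2 fold change was 0.14 for adult against neonatal controls (not called), 0.54 for recipients by age (edgeR adjusted p = 7.95e-05) and 0.37 for adult recipients against adult controls (adjusted p = 0.0307), and the part of fat was not tested. Skeletal muscle markers summed to 3.21 to 4.52 CPM in adult controls and 9.85 to 18.5 CPM in neonatal controls, so they went the other way from the heart forms. Cardiomyocyte marker sums were higher in every adult control than in every neonatal control, but the genes differed. Of the 9, 3 were called higher and 0 lower (edgeR), beside 15.6% and 15.4% of all genes. The log2 fold changes of those called were 1.17 for Mb, 0.68 for Tnni3 and 0.56 for Pln. In all 7 were positive, among them Myh6 (0.16), while Tnnt2 (-0.04) and Ttn (-0.07) were negative. Macrophage genes went the other way from the heart forms, with 4 of 6 called lower in controls (median log2 fold change -1.28) and 6 of 6 in recipients (median -1.95, edgeR). Of all genes 15.4% were called lower in controls and 26.9% in recipients. Endothelial genes were called higher for 4 of 5 in controls and in recipients, beside 15.6% and 23.8% of all genes. Erythroid genes summed to 2290 to 2435 CPM in adult controls and 639.2 to 1791 CPM in neonatal controls, and to 2938 to 4190 CPM in adult recipients and 934.5 to 1622 CPM in neonatal recipients. The part of any of these cell types in the age difference was not tested.

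T cells in neonates were followed by no called change in these genes. In NH_T against NH_C 0 of 8 isoform genes were called by edgeR, as were 0 of all genes (0%; 513 of them had an unadjusted p under 0.05, and DESeq2 and limma voom called 0). Log2 fold changes were between -0.14 ± 0.14 for Cox8b and -0.003 ± 0.103 for Cox6a1, all 8 negative with a median of -0.07, and every unadjusted p was 0.336 or more. All 8 genes overlapped between the groups, and 1.36% of all genes did not. Without neonatal control 8 the values were 0.09 for Cox7a1, 0.07 for Cox8b, 0.02 for Cox6a2 and 0.04 for Cox4i1, so the negative sign of these genes rested on that library. The ratios differed by -0.11 ± 0.18 for Cox6a2/Cox6a1, -0.03 ± 0.15 for Cox7a1/Cox7a2, -0.04 ± 0.18 for Cox8b/Cox8a and 0.06 ± 0.06 for Cox4i2/Cox4i1 on the log2 scale (exact two-sided permutation tests, adjusted p of 0.838 or more over 8 ratio tests of T cells). Without neonatal control 8 they were 0.03, 0.07, 0.14 and 0.05, with an unadjusted exact p of 0.0286 and an adjusted p of 0.229 for Cox8b/Cox8a. The summed level of 4 T cell genes was 0.607 to 1.603 CPM in neonatal recipients and 0.765 to 1.95 CPM in neonatal controls. Of these genes Cd3g had a log2 fold change of 0.93, Cd3d -0.06 and Cd247 -0.41, none called (edgeR). Cd3d and Cd3e had medians under 10 counts, and Cd3e was not tested.

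In adults all 8 isoform genes were higher in each recipient than in each control, and 2 passed the test. The adult groups were apart for 25.1% of all genes. The 2 genes called were partners of heart forms: Cox6a1, with a log2 fold change of 0.44 ± 0.11 (edgeR, adjusted p = 0.0284), and Cox8a, with 0.40 ± 0.11 (adjusted p = 0.0289), where 8.55% of all genes were called, 3.53% higher and 5.03% lower. Cox6a1 had 309.4, 317.3, 281.2 and 386.5 CPM in adult recipients, against 248.2, 223.4 and 246.3 CPM in adult controls. Cox8a had 399.9, 422.4, 363.8 and 533.0 CPM in adult recipients, against 319.2, 313.9 and 341.4 CPM in adult controls. Adult recipient 4 was the highest library for both, and without it the log2 fold changes were 0.34 (edgeR adjusted p = 0.0911) and 0.28 (0.0864), with 0 of all genes called.

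The other 6 genes had log2 fold changes of similar size that did not pass (edgeR). Cox8b had 0.44 ± 0.15 (adjusted p = 0.0812), Cox6a2 0.43 ± 0.14 (0.0602), Cox4i1 0.37 ± 0.12 (0.0513), Cox7a1 0.36 ± 0.16 (0.155), Cox7a2 0.32 ± 0.10 (0.056) and Cox4i2 0.25 ± 0.12 (0.189). The median over the 8 was 0.39, against -0.002 over all genes. The ratios within pairs differed by -0.002 ± 0.142 for Cox6a2/Cox6a1, 0.05 ± 0.04 for Cox7a1/Cox7a2, 0.05 ± 0.15 for Cox8b/Cox8a and -0.12 ± 0.05 for Cox4i2/Cox4i1 on the log2 scale (exact two-sided permutation tests, adjusted p of 0.686 or more). Without adult recipient 4 the differences were 0.12 for Cox6a2/Cox6a1, 0.07 for Cox7a1/Cox7a2, 0.17 for Cox8b/Cox8a and -0.14 for Cox4i2/Cox4i1, so the values near 0 rested in part on that library. A ratio difference within these errors does not show that heart forms and partners responded alike. The comparison shares its adult control libraries with the age comparison of controls. The summed level of the 4 T cell genes was 3.458 to 4.6 CPM in adult recipients and 3.165 to 4.653 CPM in adult controls, overlapping ranges. That sum held genes that went both ways, with log2 fold changes of 1.29 for Cd3d, 0.99 for Cd3g and -0.30 for Cd247, none called (edgeR). Cd3d and Cd3e had medians under 10 counts, and Cd3e was not tested.

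Transcript length moved with this comparison. Over 15333 genes the log2 fold change of adult recipients against adult controls had a Spearman correlation of -0.45 with transcript length, across genes that are not independent, and all 8 transcripts are short, between 360 bases for Cox8b and 765 for Cox4i1. With the length trend of each library removed, the log2 fold changes were 0.27 for Cox6a1 (edgeR adjusted p = 0.108), 0.24 for Cox8a (0.146), 0.30 for Cox8b (0.304) and 0.08 for Cox4i2 (0.765), and 0 of all genes were called. The part of length in the result was not tested. The same correlation was -0.05 for adult against neonatal controls and -0.26 for recipients, and removing the trend there left the heart forms at 1.14 to 1.28 in controls and 1.53 to 1.62 in recipients.

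**Figure D4:**
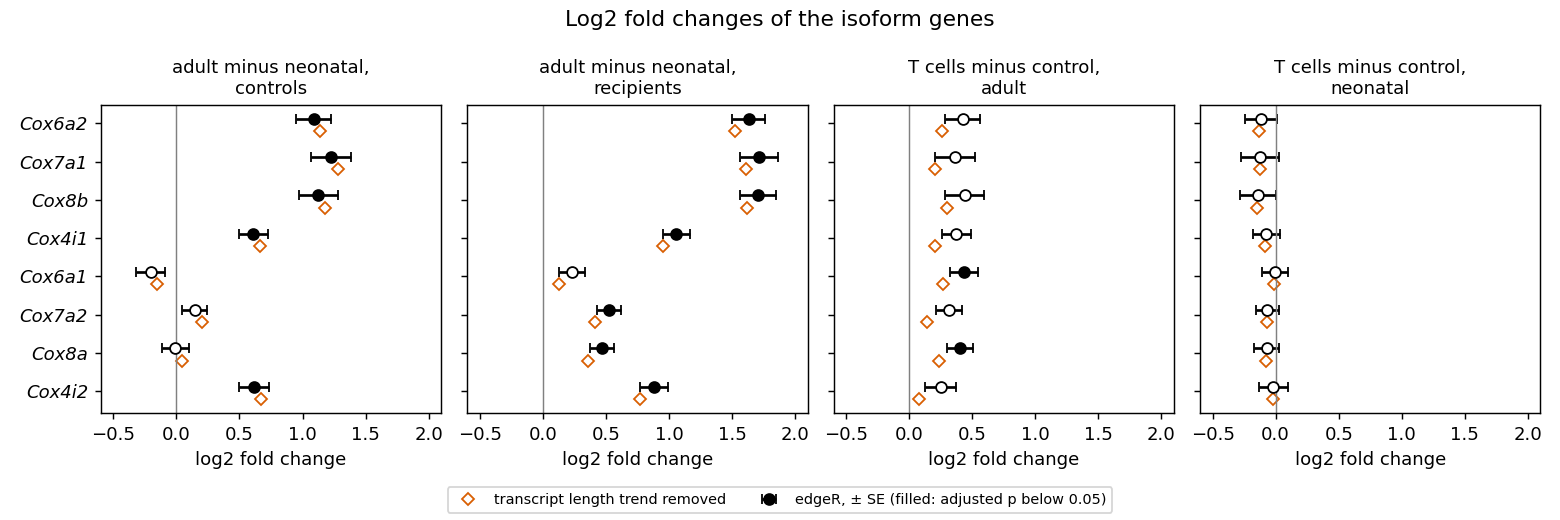
Log2 fold changes (horizontal axes) of the 8 isoform genes (vertical axis) in 4 comparisons: circles with SE from edgeR, filled where the adjusted p is below 0.05, and open diamonds with the transcript length trend removed. The heart forms Cox6a2, Cox7a1 and Cox8b are filled at 1.09 to 1.71 in both age comparisons, and in the adult T cell comparison the diamonds lie closer to 0 than the circles.

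Cardiomyocyte marker sums were also higher in every adult recipient than in every adult control, although of the 9 genes 2 were called higher and 1 lower, Ttn with a log2 fold change of -0.56 (edgeR adjusted p = 0.0422), and Ryr2 (-0.31) and Pln (-0.11) were negative too. Of all genes 3.53% were called higher and 5.03% lower between these groups. In the same libraries mitochondrially encoded mRNA made up 12.6% to 17.6% of counts in adult recipients and 17.98% to 21.4% in adult controls, and the part of either was not tested. COX1, the catalytic subunit encoded by mitochondrial DNA, had a log2 fold change of -0.39 ± 0.16 (edgeR adjusted p = 0.12), COX2 -0.06 ± 0.12 and COX3 0.009 ± 0.162, so 0 of 3 were called. Of the 7 common subunits 1 was called higher, Cox6b1 (0.40 ± 0.09, adjusted p = 0.0208), and the median was 0.28. Cox5b had 0.33 ± 0.13 and Ndufa4 0.35 ± 0.12, neither called (edgeR). Of 26 assembly factors 6 were called higher and 0 lower, led by Cmc1 (0.45 ± 0.09) and Cox19 (0.40 ± 0.09), both tied to copper supply of the enzyme, then Slirp (0.41 ± 0.11), which binds mitochondrial mRNA, and the copper chaperone Cox17 (0.30 ± 0.09). Ndufa4l2 was called higher (0.39 ± 0.08, edgeR adjusted p = 0.0181), Cox7a2l was not (0.23 ± 0.09). Of 17 regulators 3 were called lower, beside 5.03% of all genes: Esrrg (-0.56 ± 0.12), Ppargc1b (-0.41 ± 0.12) and Gabpa (-0.38 ± 0.11), factors of mitochondrial gene expression. Hif1a, at -0.33 ± 0.10, just missed the threshold (edgeR adjusted p of 0.05 after rounding). All of these calls were lost with the length trend removed.

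The effect of T cells in adults minus that in neonates, which is also the age difference in recipients minus that in controls, was positive for all 8 genes, with log2 differences of 0.27 ± 0.17 for Cox4i2 to 0.58 ± 0.21 for Cox8b. No gene of all tested was called by edgeR (0%; 2511 had an unadjusted p under 0.05, 7 of the 8 isoform genes among them, and DESeq2 called 121, limma voom 0). The adjusted p ran from 0.182 for Cox8a to 0.447 for Cox4i2. DESeq2 and limma voom called 0 of the 8. These differences moved with transcript length as well (Spearman correlation of -0.41 across genes), and with the trend removed they were 0.10 for Cox4i2, 0.29 for Cox4i1 and 0.44 for Cox8b. Without neonatal control 8, Cox7a1 was at 0.29, against 0.49 with it.

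Around their group means, the isoform genes fell into 2 sets that did not follow heart form and partner. Over the 15 libraries, centred within group, log2 CPM of Cox7a1 and Cox8b had a Pearson r of 0.94, Cox7a1 and Cox4i1 0.94, and Cox7a2 and Cox4i1 0.89; among all 6 genes other than Cox6a1 and Cox8a the range was 0.53 to 0.94. Cox6a1 and Cox8a had an r of 0.86 with each other, and 0.009 to 0.20 (Cox6a1) and 0.04 to 0.24 (Cox8a) with the other 6 genes. The points share libraries and depth, and adult recipient 4 is high for both Cox6a1 and Cox8a. By the same measure, the genes most like Cox4i1 were Myl3, a ventricular myosin light chain, and Uqcrq of complex III (r of 0.98 and 0.98), and that most like Cox7a1 was Atp5g3 of ATP synthase (0.98). Those most like Cox6a2 and Cox8b were Uqcrc1 of complex III (0.97) and Ndufc1 of complex I (0.95), and Cox7a2 was most like Grpel1, a factor of mitochondrial protein import (0.98). Cox4i2 was most like Prdx2, an antioxidant enzyme (0.97). The closest to Cox6a1 was no respiratory chain gene but Snrpa, a splicing protein (0.95), among 11098 candidates.

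Uncentred, over the same 15 libraries, Cox6a2, Cox7a1 and Cox8b had r values of 0.99 with each other. This was not particular to heart forms, since Cox4i1 had 0.984 to 0.988 and Cox4i2 0.965 to 0.977 with the same genes. The gene most like Cox6a2 was Idh3g of the citric acid cycle (r of 0.995), and most like Cox8b was Map1lc3a, an autophagy gene (0.993). Cox6a1 was most like the ribosomal protein gene Rpl29 (0.956) and Cox8a like Ntmt1, a protein methyltransferase (0.938). These values carry the age difference of the groups and are descriptions.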

How the data were processed

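The tools bcl2fastq 2.20.0.422, cutadapt 2.5, STAR 2.7.2b, featureCounts 1.6.4 and DESeq2 1.24.0 and the build GRCm38.p6 are named in the submitters' processing notes. The authors deposited 1 table of unscaled expected counts per gene, in which 61.1% of non-zero values are whole; the rule for fractions and the strand setting are not given in the sources used here. The kit was stranded and used oligo-dT capture, per the labels.

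Counts were rounded to whole numbers and filtered with filterByExpr (minimum count 10, minimum total 15), which left 16437 of 39331 genes. After scaling by trimmed mean of M values (TMM), edgeR 4.0.16 (R 4.3.3) fitted a robust quasi-likelihood model to the 4 groups over all 15 libraries. P-values were two-sided, adjusted by Benjamini-Hochberg over all genes, and called under 0.05. SE is the absolute log2 fold change over the square root of F. Log2 CPM used a prior count of 1. Ratios are log2 of counts plus 0.5, with exact permutation tests over libraries (scipy 1.17.1), adjusted within 8 tests of age and 8 of T cells. The length trend was a spline with 5 degrees of freedom on the longest transcript, per library. Lengths came from GENCODE M21 and promoters from RefSeq.

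Alternatives were DESeq2 1.42.0, limma voom 3.58.1, other scalings, no filter, fractional counts, fewer groups, the length trend, a replicate block and leaving out each library. All isoform genes are named, with the 3 genes most like each by Pearson r (mean of at least 5 CPM) and up to 4 genes of each complex IV list by smallest p, plus Cox7a2l, Ndufa4, Cox5b and Hif1a; the text prints those that bear on the isoforms, and some of the like genes are not reported here. Members and lists were chosen with earlier results of these data known. No 2 libraries were identical (highest r of log2 CPM 0.992). The model was tested on simulated data.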

Additional observations from a re-analysis of the deposited data

Results flagged for a closer look

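Within the 36 group values of 4 libraries that were examined for a library far from the rest, 2 stood out, and chance alone gives about 1 in 20. Cox7a1 in neonatal control 8 was at a log2 CPM of 7.15, against 6.38 to 6.47 in the other neonatal controls, so this library lay well above them for a heart form. The log2 ratio of Cox6a2 to Cox6a1 in neonatal recipient 1 was 0.25, against 0.63 to 0.65 in the other neonatal recipients, so this library had the least of the heart form in its pair. The reason for either value was not tested.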

How the results depend on the processing

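The calls of Cox6a2, Cox7a1, Cox8b, Cox4i1 and Cox4i2 in both age comparisons held under every alternative run. In adult recipients against adult controls the 2 members called became 4 with library totals and no TMM, 4 with upper quartile scaling, 7 when only both groups were fitted, 6 with DESeq2 and 0 with the length trend removed; the genes called became 2238 with DESeq2 and 0 with the length trend removed. Leaving out 1 library each gave 0 to 1230 genes and 0 to 2 members there, and 0 when adult recipient 4 or adult control 5 or 6 was left out; without adult recipient 2, 464 genes and 0 members were called. In neonates it gave 0 to 9 genes. DESeq2 called 121 genes for the difference of T cell effects.

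Library totals without TMM moved the median of all genes by -0.18 in controls and -0.23 in recipients between ages; there Cox7a2 in controls was at -0.018, and Cox6a1 at -0.37 was called lower. With the length trend removed Cox8a in controls was at 0.045 (log2). Leaving out 1 library, it ran from -0.044 to 0.016. For NH_T against NH_C the ranges were -0.15 to 0.042 for Cox4i1, -0.11 to 0.081 for Cox4i2, -0.07 to 0.078 for Cox6a1, -0.22 to 0.02 for Cox6a2, -0.20 to 0.089 for Cox7a1, -0.12 to 0.017 for Cox7a2 and -0.23 to 0.066 for Cox8b.

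The log2 ratios without 1 library ran, for adult against neonatal controls, from 1.236 to 1.45 for Cox6a2/Cox6a1, 1.06 to 1.21 for Cox7a1/Cox7a2 and -0.029 to 0.047 for Cox4i2/Cox4i1; fewer libraries leave no p under 0.05 there. For recipients by age Cox4i2/Cox4i1 ran from -0.21 to -0.15. For adult recipients against controls Cox6a2/Cox6a1 ran from -0.081 to 0.12 and Cox8b/Cox8a from -0.041 to 0.17. For neonatal recipients against controls Cox6a2/Cox6a1 ran from -0.18 to 0.034, Cox7a1/Cox7a2 from -0.096 to 0.068 and Cox8b/Cox8a from -0.13 to 0.14.

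Deviations of same-numbered libraries from their group means had r of 0.07, 0.11 and -0.07 in recipients, and -0.06 and 0.31 in controls. So few values cannot show whether the numbers pair libraries. With a replicate block on these libraries, 6 members and 3927 genes were called by age in controls, the added one being Cox6a1, lower (-0.31, edgeR adjusted p = 0.0329), and 8 members and 7276 genes in recipients, with Cox6a1 higher (0.38, adjusted p = 0.0107); without the number, an alternative added after seeing the data, 5 members and 3021 genes, and 8 members and 7330 genes.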
